A study of Triticum aestivum with 34 samples.

Results

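The squamosa promoter-binding-like factors (SPL) of wheat were followed in developing spikelets, the units of the ear that carry the florets. A gene model counted as a member if its deposited description named a squamosa promoter-binding protein and its FPKM was 1 or more in 2 or more libraries. FPKM scales the fragments of a model by transcript length and library depth, which lets levels of genes and libraries be set side by side. It does not correct for differences in library composition, so FPKM values and their sums are given as description. The tests used counts with a scaling of their own. Of 52 models with such a description, 39 were members, among 71963 models of the whole table that passed the same level. RNA sequencing covered basal spikelets and central spikelets of untreated Triticum aestivum ears of the genotype shimai22, taken 6, 9, 12, 15, 21 and 27 days past the terminal spikelet stage, when the ear has formed its last spikelet. Each position had 17 libraries, 3 per day, although basal spikelets of day 15 and central spikelets of day 21 had only 2. The series is about the lower fertility of basal spikelets, and the comparison here is basal against central spikelets of the same day. The labels do not say how many plants made up a library or whether replicates were different plants, so the p-values below measure only the spread between these libraries.

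SPL proteins are plant transcription factors that bind DNA through a zinc-binding domain, the SBP domain. Many of them are cut by the microRNA miR156, whose level falls as a plant ages, which lets SPL levels increase and promotes the change to flowering. In grasses SPL factors act in the shape of the inflorescence, in tillering, in the ligule of the leaf and in grain size. Roles named below for a number are those known for the rice gene of that number, as background, and were not tested in these wheat spikelets. Names here give the SPL number of the deposited description and the chromosome, so that SPL2-3D is the SPL2 model on chromosome 3D, and letters after the chromosome number tandem copies. Bread wheat carries the subgenomes A, B and D, and near-identical copies may share reads.

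The members carried 13 SPL numbers. SPL10 had 10 models, SPL3 had 4, and SPL2, SPL4, SPL9, SPL15 and SPL18 had 3 each. SPL1, SPL5, SPL6 and SPL8 had 2 each, and SPL16 and SPL21 had 1 each. The 13 described models that missed the level were 7 of SPL17, 3 of SPL7 and 1 each of SPL1, SPL2 and SPL10. The nearest miss was SPL17-7A (TraesCS7A03G0567100), which reached an FPKM of 1.36 in 1 library and averaged 0.32. Just inside the limit were SPL10-7Da, which reached 1 in 3 libraries with a highest value of 1.27, and SPL10-7Bc, also in 3 libraries with a highest value of 1.52. The 3 libraries of SPL10-7Bc were those of basal day 12, the single case of a member that met the level through 1 group, so its calls for that group count as no support and the counts are also given without it. Rice SPL17 is known for inflorescence branching, and the SPL17 models here averaged no more than 0.58 FPKM, the highest being a model whose description also names a G patch protein (TraesCS7D03G0548800). Of the 39 members, 38 overlapped in position a gene that RefSeq lists as protein-coding in the Chinese Spring assembly of wheat. Positions below are those of the deposited table, whose build was not given in the sources used here.

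Library totals ran from 95144712 to 126139684 estimated counts. The 26 models described as floral MADS-box factors of spikelet and floret identity were above 0 in every group, with a summed FPKM of 270.4 to 691.8 in basal libraries and 379.5 to 989.8 in central libraries. All differences are basal minus central and were tested by edgeR's quasi-likelihood method, with p-values adjusted over all 71963 models by Benjamini and Hochberg. A model is called when its adjusted p is under 0.05. In such bulk samples, fewer cells of a type and less RNA per cell cannot be told apart.

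The SPL15 models and the SPL3 models had the highest levels. Averaged over the 34 libraries, SPL15-7D (TraesCS7D03G0554800) stood at 33.2 FPKM, SPL3-6A (TraesCS6A03G0258300) at 25.4 and SPL15-7B (TraesCS7B03G0386000) at 24.1. SPL15-7A at 22.6, SPL3-6D at 21.4 and SPL3-6B at 17.7 followed, so the 3 SPL15 models and the 3 main SPL3 models held the top 6 places. The SPL6 pair stood at 13.9 and 11.6 FPKM, and SPL18-5A at 10.2. In all, 9 members averaged 10 FPKM or more, 24 averaged 1 to 10 and 6 averaged less than 1. The lowest was SPL10-7Da at 0.39 FPKM. Copies of a number could differ widely, as within SPL10, where means ran up to 7.27 FPKM in SPL10-7Dd.

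**Figure D1:**
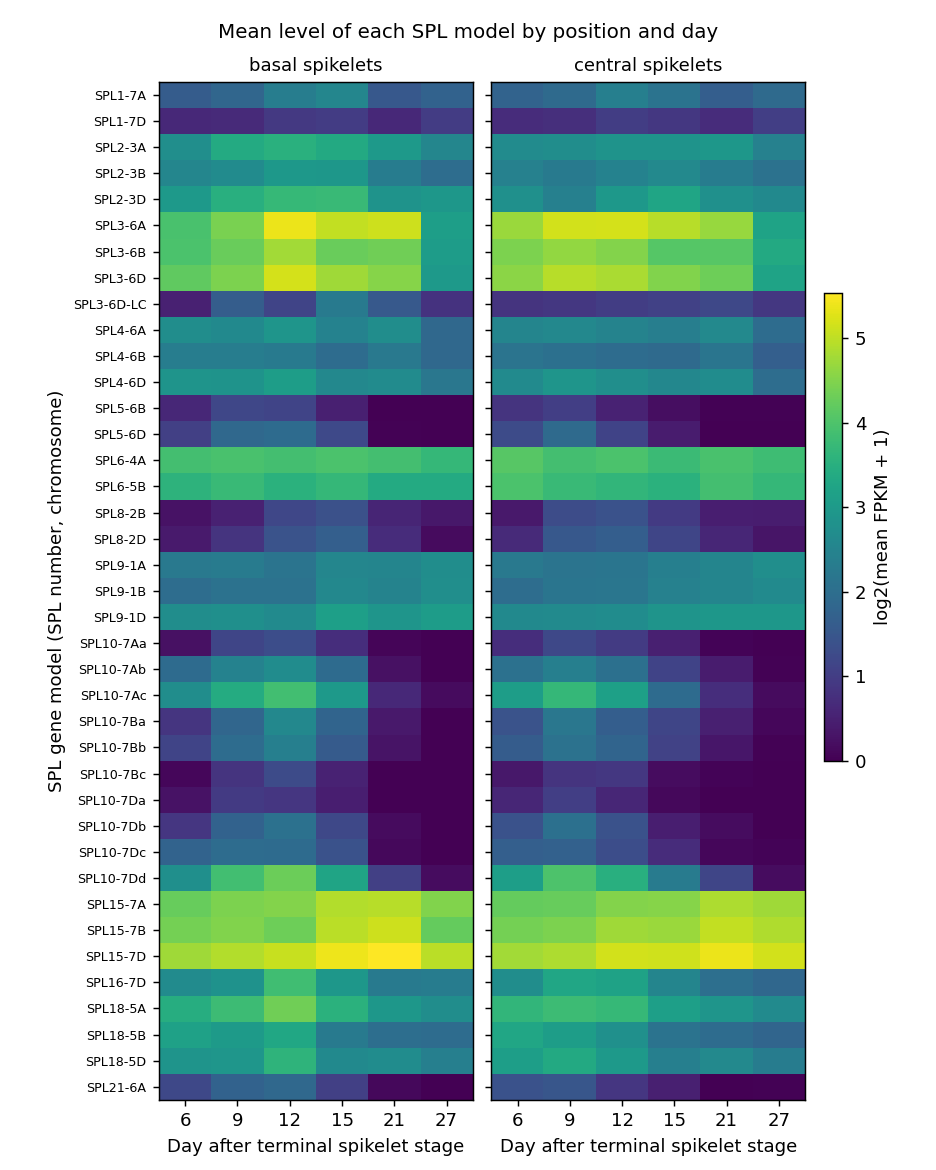
Mean level of the 39 SPL members in basal spikelets (left) and central spikelets (right) on the 6 sampling days, which are drawn at equal distances. Colour is log2(mean FPKM + 1) of the 2 or 3 libraries of a group. SPL15 and SPL3 models are the brightest rows, and the SPL10, SPL5 and SPL21 rows darken after day 15 on both sides.

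Nearly every member changed over the 6 days within a position. By edgeR's test over days, 38 of 39 members changed in basal spikelets and 37 of 39 in central spikelets, where 92.1% and 88.1% of all models did. The 38 include SPL10-7Bc, whose call counts as no support there, since the basal day 12 libraries enter that test. Group means were highest on day 12 in 21 of 39 members in basal spikelets, and on day 9 in 18 of 39 members in central spikelets. Peak days were not counted over all models, so these counts have no share to be set against. The summed FPKM of the members averaged 384 ± 18.1 in basal and 314 ± 5.78 in central libraries on day 12 (SD, n = 3 each). On day 27 it averaged 176 ± 9.74 in basal and 199 ± 5.96 in central libraries (SD, n = 3 each). Between day 27 and day 6, 26 members were lower and 6 higher on day 27 in basal spikelets, against 35.3% and 39.8% of all models. In central spikelets 26 were lower and 7 higher on day 27, against 32.6% and 37.9% of all models. The members that were higher on day 27 in both positions were SPL1-7D and all 3 SPL9 models together with SPL15-7A and SPL15-7D. SPL15-7B was higher on day 27 in central spikelets (adjusted p = 0.0152).

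Basal and central levels differed in a direction that depended on the day. On day 6, 9 of 39 members were lower in basal spikelets, which is 23.1%, where 9.20% of all models were lower. No member was higher on day 6 by edgeR's test, where 7.91% of all models were, while 5 members were higher at an unadjusted p under 0.05 and DESeq2 called 1. On day 9, 5 members were higher and 7 lower, 12.8% and 17.9% of the members, against 18.1% and 18.2% of all models. On day 12, 22 members were higher, which is 56.4%, where 13.6% of all models were higher, and without SPL10-7Bc it was 21 of 38. None was lower on day 12 by edgeR's test, where 14.5% of all models were, while 1 member was lower at an unadjusted p under 0.05, DESeq2 called 0 and limma on log2(FPKM + 1) called 1. On day 15, 19 members were higher, which is 48.7%, where 8.89% of all models were higher. None was lower on day 15 by edgeR, DESeq2 or limma after adjustment, or by edgeR at an unadjusted p under 0.05, where edgeR called 13.8% of all models lower.

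The median log2 difference of the 39 members was -0.16 on day 6, -0.04 on day 9, 0.56 on day 12 and 0.39 on day 15, while that of all models was 0.0098, 0.0145, 0.0009 and -0.0020. On day 21, 5 members were higher, which is 12.8%, against 10.2% of all models. None was lower on day 21 by edgeR, DESeq2 or limma after adjustment, or by edgeR at an unadjusted p under 0.05, where edgeR called 6.88% of all models lower. Without basal day 21 replicate 2, edgeR called 1 member lower on that day. On day 27, 4 members were higher and 2 lower, against 11.3% and 10.4% of all models. Over the 6 days, 32 members were higher on at least 1 day, 15 were lower on at least 1 day and 13 were both. Calls on at least 1 day were not counted over all models, so these counts have no share to be set against. The difference itself changed over the days in 26 of 39 members, 66.7%, where it did in 56.7% of all models. The 26 include SPL10-7Bc, whose call counts as no support here, since the basal day 12 libraries enter this test.

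The counts on days 6, 12 and 15 depended on single libraries. Without basal day 6 replicate 2, central day 6 replicate 1 or central day 6 replicate 3, the 9 lower members of day 6 became 5, 4 and 5. The 22 higher members of day 12 became 14 without basal day 12 replicate 2, while the 0 lower ones became 2 without basal day 12 replicate 1 and 1 without central day 12 replicate 3. The 19 higher members of day 15 became 5 and 9 without basal day 15 replicates 1 and 2, and 12 and 9 without central day 15 replicates 2 and 3. A single basal library remains on day 15 in the first pair of these fits, and it is then taken to vary like the other groups. The 5 higher members of day 21 became 1 without basal day 21 replicate 1, and 3 and 2 without central day 21 replicates 1 and 2. They also became 3 without any 1 of the 3 basal day 6 libraries, or without replicate 3 of either position on day 27. The 4 higher members of day 27 became 8 without basal day 27 replicate 2, and 1 without basal day 27 replicate 3 or central day 27 replicate 1. The 2 lower members of day 27 became 0 without any 1 of 8 libraries, which were all 3 basal day 6 libraries, basal day 21 replicate 1, basal day 27 replicates 2 and 3 and central day 27 replicates 2 and 3.

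**Figure D2:**
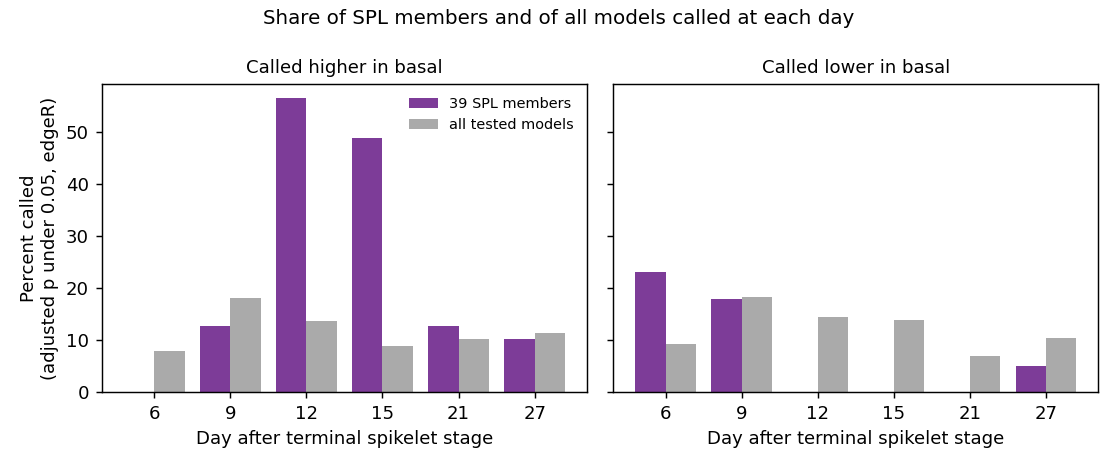
Percent of the 39 SPL members and of all 71963 tested models called higher (left) or lower (right) in basal than in central spikelets on each day, by edgeR at an adjusted p under 0.05. Members stand above all models for higher calls on days 12 and 15, at 56.4% and 48.7%, and for lower calls on day 6, at 23.1%.

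**Figure D3:**
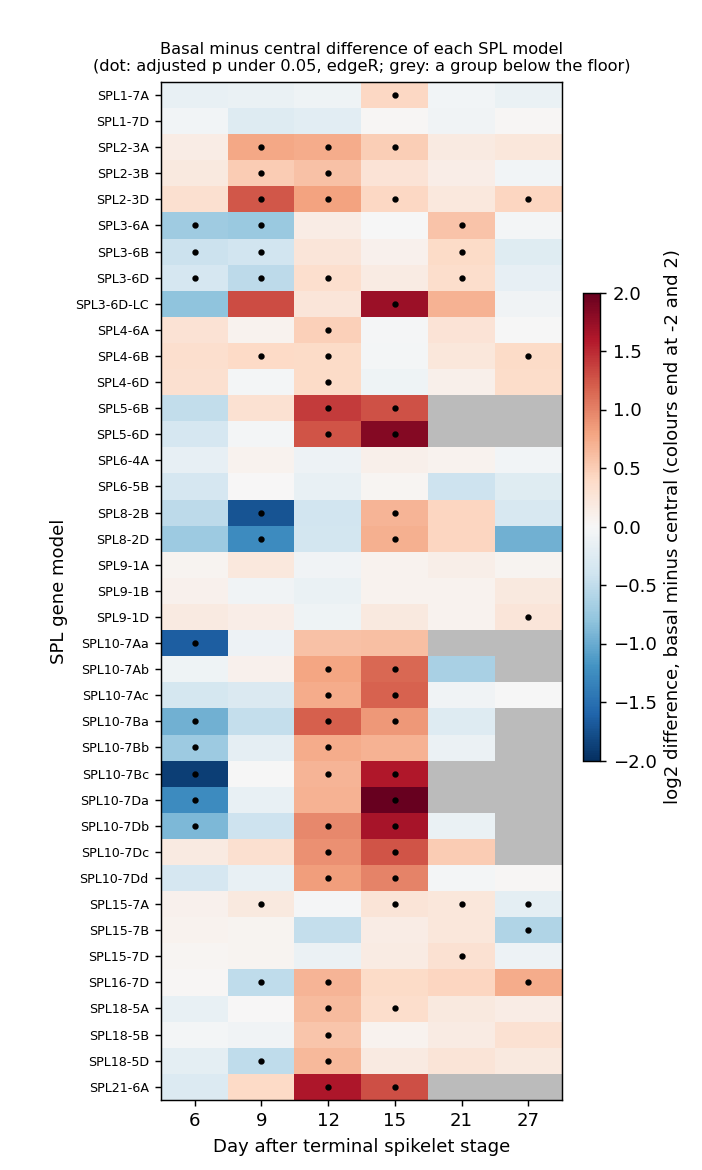
Log2 difference, basal minus central, of each SPL member on each day, with colours ending at -2 and 2. A dot marks an adjusted p under 0.05 by edgeR, and grey marks a day on which a group lay below 12 counts in every library. Dots on blue mark 3 SPL3 and 6 SPL10 models on day 6, and 3 SPL3 and both SPL8 models on day 9. Dots on red mark 8 SPL10 models on day 12 and 8 on day 15, and the SPL2 rows are red from day 6 to day 21.

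The SPL10 models form tandem clusters. Rice SPL10 is known for a role in leaf hairs. On chromosome 7A, 3 models lay within 138.2 kb (689698094 to 689836336), on 7B 3 models within 233.0 kb (675819072 to 676052026) and on 7D 4 models within 220.9 kb (594816735 to 595037613). In basal spikelets 8 of 10 had their highest mean on day 12 and 2 on day 9, and in central spikelets 9 of 10 had it on day 9 and 1 on day 12. The summed FPKM of the 10 models averaged 41.1 ± 1.32 in basal and 46.4 ± 4.15 in central libraries on day 9 (SD, n = 3 each). On day 12 it averaged 56.7 ± 6.53 in basal and 31.3 ± 2.42 in central libraries (SD, n = 3 each).

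SPL10-7Dd (TraesCS7D03G1141600, 7D, 595035088 to 595037613, minus strand) was the most abundant of them. On day 12 its FPKM was 15.52, 20.03 and 20.39 in basal libraries, and 11.23, 10.01 and 9.45 in central libraries. On day 15 it was 9.63 and 7.30 in basal libraries, and 4.01, 3.74 and 4.0 in central libraries. The groups did not overlap on either day, and basal libraries were the higher ones. By edgeR, the log2 difference of SPL10-7Dd was 0.84 ± 0.18 (SE) on day 12 (adjusted p = 0.00105) and 1.0 ± 0.21 on day 15 (adjusted p = 0.000734). On days 6 and 9 it was -0.34 ± 0.19 and -0.14 ± 0.18, with adjusted p-values of 0.231 and 0.583.

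SPL10-7Ac (TraesCS7A03G1200300, 7A, 689833745 to 689836336, minus strand) followed the same days. On day 15 its FPKM was 7.56 and 6.35 in basal libraries, and 3.16, 2.64 and 2.69 in central libraries. The lowest basal library was above the highest central one, and the log2 difference was 1.18 ± 0.21 (SE, edgeR adjusted p = 0.000116). Its day 12 difference was 0.75 ± 0.18 (adjusted p = 0.00273). Both calls of SPL10-7Ac, and both of SPL10-7Dd, held in every one of the 34 fits that left out a library.

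Across the cluster, 8 of 10 SPL10 models were higher in basal spikelets on day 12 and 8 of 10 on day 15. Of all models, 13.6% and 8.89% were higher on these days. Without SPL10-7Bc, which met the level only in the basal day 12 libraries, 7 of 9 were higher on each of these days. The day 12 differences of the 10 models ran from 0.584 to 1.197 on the log2 scale, and those of day 15 ran from 0.61 to 2.10. SPL10-7Aa missed the threshold on both days, with adjusted p-values of 0.208 and 0.403. SPL10-7Da missed it on day 12 (adjusted p = 0.0683) and SPL10-7Bb on day 15 (adjusted p = 0.0782). On day 12 the calls of 4 SPL10 models, and on day 15 those of 6, ended in at least 1 fit that left out a library. The day 12 calls were lost without basal day 12 replicate 2 in all 4 models, and without central day 12 replicate 2 or 3 in some of them. The day 15 calls of 5 of the 6 models were lost only in fits without a day 15 library, and SPL10-7Ba lost its call in 12 of the 34 fits.

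Day 6 showed the opposite direction, with 6 of 10 SPL10 models lower in basal spikelets, where 9.20% of all models were lower. Without SPL10-7Bc it was 5 of 9. SPL10-7Bc (TraesCS7B03G1082300, 7B, 676049691 to 676052026) had the smallest p of the cluster on that day. Its FPKM was 0.07, 0.08 and 0.07 in basal libraries, and 0.31, 0.21 and 0.35 in central libraries. The basal values rest on 14, 16 and 14 estimated counts, just above the floor of 12 counts per library that is described below. No basal library reached the lowest central one, at levels well under 1 FPKM, and the log2 difference was -1.89 ± 0.43 (SE, edgeR adjusted p = 0.00255). The calls of SPL10-7Bc and SPL10-7Da held without any single library. SPL10-7Aa, SPL10-7Ba and SPL10-7Db lost theirs in 3, 4 and 5 fits that each left out a day 6 library, and SPL10-7Bb lost its call in 20 of 34 fits.

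The cluster was near 0 by the end of the course. The summed FPKM of the 10 models averaged 0.30 ± 0.10 in basal and 0.43 ± 0.17 in central libraries on day 27 (SD, n = 3 each). A floor of 12 counts per library, meant as 3 fragments, was set for models at or near 0. Against that floor, SPL10-7Ab was at least 81.4-fold lower on day 27 than on day 12 in basal spikelets, and at least 63.5-fold lower than on day 9 in central spikelets. SPL10-7Dd, which stayed above the floor, was 39.1-fold lower on day 27 than on day 6 in basal spikelets (adjusted p = 5.03e-15) and 50.2-fold lower in central spikelets (adjusted p = 1.34e-15). The basal and central levels of SPL10-7Dd on day 27 overlapped, with 0.10, 0.14 and 0.17 FPKM in basal libraries and 0.20, 0.17 and 0.06 FPKM in central libraries (adjusted p = 0.994).

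**Figure D4:**
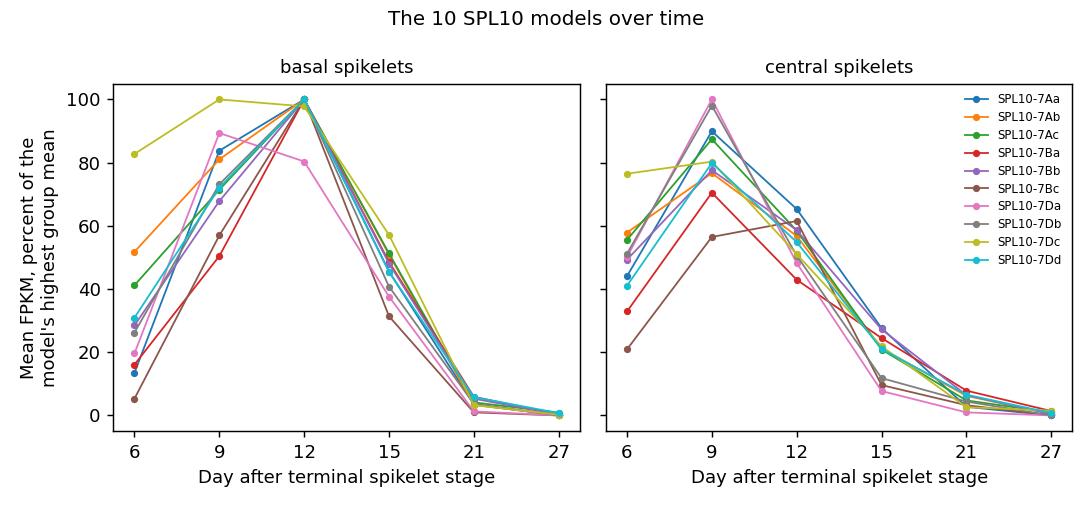
Mean FPKM of each of the 10 SPL10 models in basal (left) and central (right) spikelets, as percent of the model's highest group mean, over the 6 days drawn at equal distances. In basal spikelets 8 of 10 lines top out on day 12 and in central spikelets 9 of 10 on day 9, and all are close to 0 by day 27.

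SPL5-6B, SPL5-6D and SPL21-6A, which lie on the group 6 chromosomes, had a course like that of the cluster. On day 12, SPL21-6A (TraesCS6A03G0364200, 6A, 139246424 to 139249551) had 2.34, 3.05 and 2.59 FPKM in basal libraries, and 1.13, 0.85 and 0.55 FPKM in central libraries. The ranges were apart by more than 1 FPKM, with a log2 difference of 1.62 ± 0.29 (SE, edgeR adjusted p = 0.000129). SPL5-6D (TraesCS6D03G0318300, 6D, 132921710 to 132924533) had 1.36 and 1.29 FPKM in basal libraries on day 15, and 0.25, 0.62 and 0.14 FPKM in central libraries. Its basal libraries were close together and above the more scattered central ones, with a log2 difference of 1.83 ± 0.35 (adjusted p = 0.000385). SPL5-6B (TraesCS6B03G0457800) was 2.63-fold higher in basal spikelets on day 12 (adjusted p = 0.000499) and 2.41-fold higher on day 15 (adjusted p = 0.0365). The day 15 call of SPL5-6B ended without any 1 of the 5 day 15 libraries, and that of SPL21-6A (adjusted p = 0.0122) ended without basal day 15 replicate 1 or central day 15 replicate 3. On day 27 SPL5-6D was listed at 0 in all 3 basal and all 3 central libraries.

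The main SPL3 models were lower in basal spikelets on days 6 and 9 and higher on day 21. Rice SPL3 is a miR156 target known for a role in crown root formation. SPL3-6A (6A, 82222070 to 82226288) had 13.67, 13.86 and 16.04 FPKM in basal libraries on day 6, and 25.87, 23.53 and 25.55 FPKM in central libraries. On day 9 it had 20.49, 21.61 and 19.70 FPKM in basal libraries, and 33.01, 34.66 and 35.90 FPKM in central libraries. On both days every basal library lay below every central one, and the log2 differences were -0.71 ± 0.11 (SE, edgeR adjusted p = 3.11e-05) and -0.74 ± 0.11 (adjusted p = 3.75e-06).

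By day 12 the SPL3-6A ranges had met, at 40.01, 44.43 and 36.41 FPKM in basal and 35.36, 34.79 and 36.48 FPKM in central libraries (adjusted p = 0.3). On day 21 it had 35.71, 33.54 and 31.64 FPKM in basal libraries, and 25.11 and 24.44 FPKM in central libraries. Basal libraries were then the higher ones, without overlap, by 0.58 ± 0.12 on the log2 scale (SE, edgeR adjusted p = 0.00144). The change of the difference over days had an adjusted p of 4.15e-07 for SPL3-6A, the smallest of all members. All 3 of its daily calls held without any single library.

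SPL3-6B and SPL3-6D moved in the same directions on days 6, 9 and 21, with smaller differences than SPL3-6A, though the difference between the copies was not tested. SPL3-6B (TraesCS6B03G0349300, 6B, 141662314 to 141666778) was 1.34-fold lower in basal spikelets on day 6 (adjusted p = 0.00188), 1.30-fold lower on day 9 (adjusted p = 0.00188) and 1.30-fold higher on day 21 (adjusted p = 0.012). SPL3-6D (TraesCS6D03G0213000, 6D, 83670558 to 83675450) had 20.97, 21.71 and 19.49 FPKM in basal libraries on day 9, and 28.41, 29.21 and 31.60 FPKM in central libraries. That difference was -0.52 ± 0.10 (SE, edgeR adjusted p = 0.00016), and on day 12 SPL3-6D was 1.26-fold higher in basal spikelets (adjusted p = 0.0139). The day 21 call of SPL3-6B ended without basal day 21 replicate 1 or central day 21 replicate 2, and that of SPL3-6D (adjusted p = 0.0332) ended in 7 of the 34 fits. Those of SPL3-6D on day 6 (adjusted p = 0.0217) and day 12 ended in 3 and 2 of them. On day 27 the differences of the 4 SPL3 models, the antisense one included, ran from -0.24 to -0.03 on the log2 scale, and none passed the test (adjusted p-values from 0.0696).

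The fourth SPL3 model is a low-confidence one (TraesCS6D03G0213200LC, 6D, 83671749 to 83672114) on the minus strand, inside the plus-strand SPL3-6D. Reads of the pair cannot be told apart unless strand was used in counting, which was not stated. Its values scattered, with 2.25 and 5.53 FPKM in basal libraries on day 15 and 1.47, 0.85 and 1.0 FPKM in central libraries. It was called higher on that day (log2 difference 1.70 ± 0.56, edgeR adjusted p = 0.028), and the call ended without basal day 15 replicate 2, central day 15 replicate 2 or central day 15 replicate 3.

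The SPL2 models were higher in basal spikelets, 3 of 3, on days 9 and 12 and in the mean of the 6 daily differences. Of all models, 18.1% were higher on day 9, 13.6% on day 12 and 16.0% in that mean. Rice SPL2 is a miR156 target. SPL2-3D (TraesCS3D03G0935000, 3D, 539246362 to 539249673) had 10.32, 10.31 and 10.08 FPKM in basal libraries on day 9, and 4.13, 4.66 and 4.22 FPKM in central libraries. On day 12 it had 10.71, 13.83 and 11.81 FPKM in basal libraries, and 7.72, 6.58 and 6.08 FPKM in central libraries. The groups were apart on both days, more so on day 9, with log2 differences of 1.24 ± 0.13 (SE, edgeR adjusted p = 3.16e-08) and 0.81 ± 0.13 (adjusted p = 4.47e-05). SPL2-3D was also higher on days 15 and 27, by 0.41 ± 0.14 (adjusted p = 0.0373) and 0.44 ± 0.13 (adjusted p = 0.0201). Its mean over the 6 days was 0.57 ± 0.06 higher in basal spikelets (adjusted p = 9.49e-09), the smallest p of all members.

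SPL2-3A (TraesCS3A03G1005700, 3A, 674059663 to 674063063) had 10.78, 8.82 and 8.93 FPKM in basal libraries on day 9, and 5.28, 6.00 and 5.38 FPKM in central libraries. The lowest basal library stood clear of the highest central one, with a log2 difference of 0.78 ± 0.13 (SE, edgeR adjusted p = 3.55e-05). It was higher by 0.74 ± 0.13 on day 12 (adjusted p = 0.000144) and by 0.49 ± 0.15 on day 15 (adjusted p = 0.0145). SPL2-3B (TraesCS3B03G1155300, 3B, 728202342 to 728206632) was 1.43-fold higher in basal spikelets on day 9 (adjusted p = 0.00274) and 1.49-fold higher on day 12 (adjusted p = 0.00145). The day 9 and day 12 calls of all 3 SPL2 models, and their calls in the mean, held without any single library. The day 15 call of SPL2-3A ended without basal day 15 replicate 1 or central day 15 replicate 3. That of SPL2-3D ended in 4 fits that each left out a day 15 library, and its day 27 call ended in 3 that each left out a day 27 library. On day 21 the 3 SPL2 models showed differences of 0.14 to 0.21 on the log2 scale, and none passed the test.

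**Figure D5:**
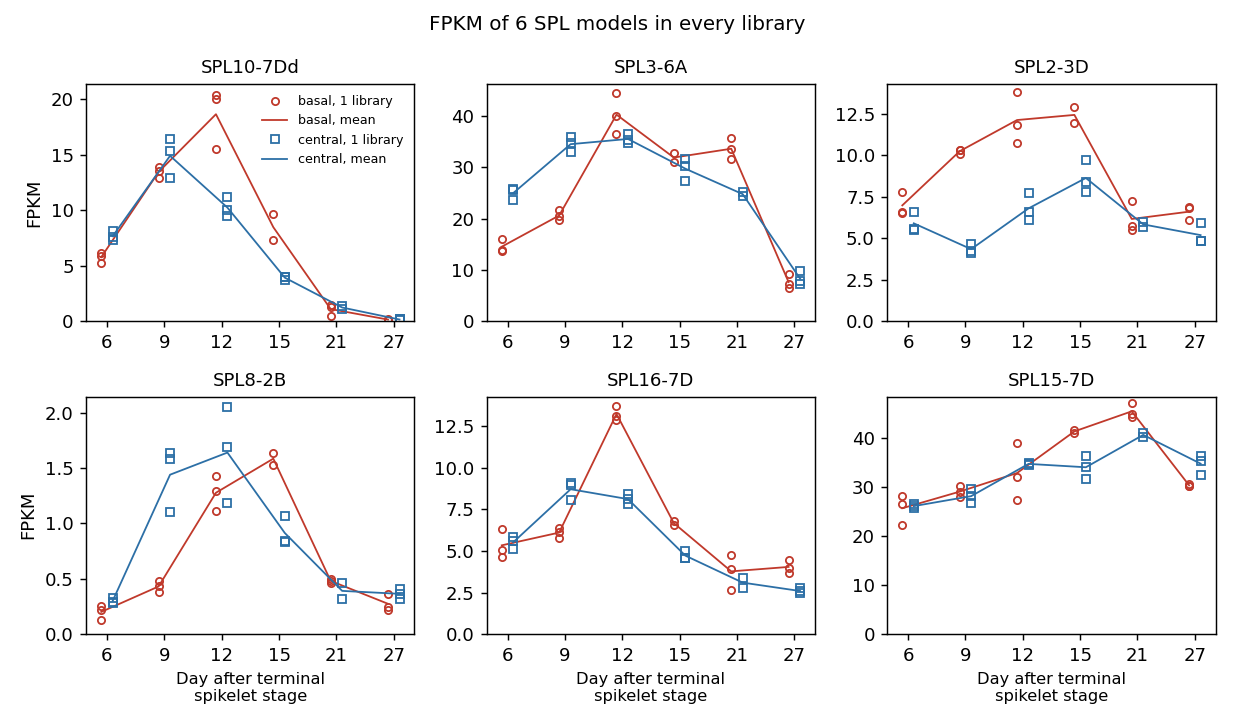
FPKM of 6 SPL models in every library, with basal libraries as red circles, central libraries as blue squares and lines through the group means, over the 6 days drawn at equal distances. SPL3-6A and SPL8-2B lie lower in basal libraries on day 9 and SPL2-3D higher, while SPL10-7Dd and SPL16-7D stand higher in basal libraries on day 12.

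On day 12, when 13.6% of all models were higher in basal spikelets, the SPL4, SPL16 and SPL18 models were all higher, 7 of 7. Their numbers are miR156 targets in rice, where SPL16 is known for grain width and SPL18 for grain number and size. SPL16-7D (TraesCS7D03G0590200, 7D, 239401719 to 239407665) had 12.86, 13.73 and 13.15 FPKM in basal libraries on day 12, and 8.11, 8.44 and 7.82 FPKM in central libraries. On day 9 it had 6.17, 5.76 and 6.39 FPKM in basal libraries, and 8.96, 9.10 and 8.09 FPKM in central libraries. The order of the groups was reversed between these days, without overlap on either. The log2 difference of SPL16-7D was -0.51 ± 0.14 on day 9 (SE, edgeR adjusted p = 0.00484), 0.68 ± 0.14 on day 12 (adjusted p = 0.000583) and 0.74 ± 0.15 on day 27 (adjusted p = 0.000622). On day 27 it had 4.48, 3.66 and 3.98 FPKM in basal libraries, and 2.45, 2.57 and 2.75 FPKM in central libraries. These 3 calls of SPL16-7D held without any single library.

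SPL18-5A (TraesCS5A03G0702400, 5A, 495114538 to 495120773) had 17.29, 22.49 and 17.86 FPKM in basal libraries on day 12, and 12.82, 12.14 and 11.59 FPKM in central libraries. All basal libraries were above all central ones, replicate 2 by the most, and the log2 difference was 0.63 ± 0.10 (SE, edgeR adjusted p = 5.99e-05). SPL18-5B (TraesCS5B03G0739600) and SPL18-5D (TraesCS5D03G0669100) were 1.47-fold (adjusted p = 0.00167) and 1.57-fold higher (adjusted p = 0.000548) on that day. SPL18-5D was 1.42-fold lower in basal spikelets on day 9 (adjusted p = 0.00307), a day on which its 2 homoeologues, the copies on the other subgenomes, had adjusted p-values of 0.973 and 0.717, and the difference between the copies was not tested. The day 12 calls of the 3 SPL18 models and the day 9 call of SPL18-5D held without any single library. The 3 SPL4 models differed less. SPL4-6B (TraesCS6B03G0465800, 6B, 211073058 to 211077302) had 4.13, 4.19 and 4.02 FPKM in basal libraries on day 9, and 3.16, 3.11 and 3.10 FPKM in central libraries. Replicates of SPL4-6B lay close together there, with a log2 difference of 0.40 ± 0.12 (SE, adjusted p = 0.00995) that held without any single library. The day 12 differences of the 3 SPL4 models were 0.38 to 0.47 on the log2 scale, and each of the 3 calls ended without basal day 12 replicate 2. SPL4-6B was also higher on day 27 (adjusted p = 0.0284), a call that ended without any 1 of 3 day 27 libraries.

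The SPL8 pair had the largest differences of day 9 among the 7 members that were lower. Rice SPL8 is the LIGULELESS1 gene, which is needed for the ligule and auricle of the leaf and is also known for the closing of the panicle. SPL8-2B (TraesCS2B03G1327600, 2B, 733941373 to 733945726) had 0.43, 0.48 and 0.38 FPKM in basal libraries on day 9, and 1.64, 1.1 and 1.58 FPKM in central libraries. The highest basal library did not reach the lowest central one, and the log2 difference was -1.73 ± 0.22 (SE, edgeR adjusted p = 4.86e-07), which is 3.32-fold lower. SPL8-2D (TraesCS2D03G1119600, 2D, 599504766 to 599509206) had 0.63, 0.86 and 0.83 FPKM in basal libraries on that day, and 1.81, 1.88 and 1.90 FPKM in central libraries. It was 2.39-fold lower, with a log2 difference of -1.25 ± 0.24 (adjusted p = 0.000122). On day 15 the order was reversed, with SPL8-2B at 1.53 and 1.64 FPKM in basal libraries and 1.07, 0.83 and 0.84 FPKM in central libraries (log2 difference 0.68 ± 0.21, adjusted p = 0.0214). SPL8-2D was 1.64-fold higher on day 15 (adjusted p = 0.0342). The day 9 calls of the pair held without any single library, while the day 15 calls ended in 4 and 5 of the fits that each left out a day 15 library. The change of the difference over days had adjusted p-values of 9.76e-06 for SPL8-2B and 0.000273 for SPL8-2D. In both models the highest group mean came on day 15 in basal spikelets and on day 12 in central spikelets.

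Of the abundant SPL15 models, SPL15-7A and SPL15-7D differed by 0.30 or less in size on the log2 scale where called, and SPL15-7B by more. SPL15-7D (7D, 221215926 to 221221529) had 47.28, 44.89 and 44.37 FPKM in basal libraries on day 21, and 40.32 and 41.09 FPKM in central libraries. Its groups were apart by a few FPKM, with a log2 difference of 0.30 ± 0.09 (SE, edgeR adjusted p = 0.0196), and the call ended without basal day 21 replicate 1 or either central day 21 library. SPL15-7A (TraesCS7A03G0572400, 7A, 236151844 to 236159783) was called on 4 days, with differences of 0.20 ± 0.07 on day 9 (adjusted p = 0.0222), 0.26 ± 0.08 on day 15 (adjusted p = 0.0125), 0.23 ± 0.08 on day 21 (adjusted p = 0.0366) and -0.19 ± 0.07 on day 27 (adjusted p = 0.0422). These 4 calls ended in 4, 3, 10 and 10 of the 34 fits that left out a library. The SPL15-7B model (7B, 194610322 to 194615820) scattered more than its homoeologues. It had 27.46, 20.65 and 8.90 FPKM in basal libraries on day 12, against 25.97, 26.00 and 25.24 FPKM in central libraries. On day 27 it had 24.44, 14.42 and 14.12 FPKM in basal libraries, and 29.74, 29.04 and 27.05 FPKM in central libraries. The groups did not overlap on day 27, and the difference was -0.60 ± 0.21 (adjusted p = 0.0415), a call that ended in 9 of the 34 fits.

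Of the SPL9, SPL6 and SPL1 models, SPL9-1D and SPL1-7A differed between positions on 1 day each and the others on no single day. Rice SPL9 is known for the response to copper, and rice SPL6 for holding back the stress response of the endoplasmic reticulum in the panicle. The 3 SPL9 models were higher on day 27 than on day 6 in both positions, by 0.48 to 1.02 on the log2 scale in basal spikelets and by 0.41 to 0.90 in central spikelets. SPL9-1D (TraesCS1D03G0613900, 1D, 349501444 to 349513196) had 7.18, 7.15 and 7.74 FPKM in basal libraries on day 27, and 6.37, 6.69 and 6.83 FPKM in central libraries. Its groups were apart by less than 1 FPKM, with a log2 difference of 0.24 ± 0.07 (SE, edgeR adjusted p = 0.0181), and the call ended without basal day 27 replicate 3 or central day 27 replicate 1. SPL6-4A (TraesCS4A03G0888200) stayed between 11.41 and 16.54 FPKM in all libraries, and SPL6-5B (TraesCS5B03G1243200) ran from 5.97 to 14.92 FPKM. SPL1-7A (TraesCS7A03G0485500) was 1.33-fold higher in basal spikelets on day 15 (adjusted p = 0.0386), a call that ended without basal day 15 replicate 1 or 2 or central day 15 replicate 1. It ran from 1.7 to 4.94 FPKM over the libraries.

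Averaged over the 6 daily differences, 11 members were higher and 3 lower in basal spikelets, 28.2% and 7.69% of the members, against 16.0% and 17.5% of all models. The 11 were the 3 SPL2 models, the 3 SPL4 models, SPL9-1D, SPL15-7A, SPL16-7D, SPL18-5A and SPL18-5B. SPL4-6B had a mean difference of 0.28 ± 0.05 (SE, edgeR adjusted p = 0.000107), SPL16-7D one of 0.29 ± 0.06 (adjusted p = 0.000452) and SPL18-5A one of 0.20 ± 0.05 (adjusted p = 0.00109). SPL9-1D stood at 0.12 ± 0.03 (adjusted p = 0.003) and SPL4-6A (TraesCS6A03G0376500) at 0.18 ± 0.05 (adjusted p = 0.0104). The 3 that were lower were SPL3-6A, SPL8-2B and SPL8-2D, at -0.13 ± 0.05, -0.31 ± 0.11 and -0.36 ± 0.12, and these 3 became 1 without central day 21 replicate 2 or central day 27 replicate 2, and 0 without day 9. SPL4-6D, SPL18-5B and SPL3-6A lost their calls in the mean in 1, 3 and 7 of the 34 fits that left out a library. For the 7 members with a group at 0 the fitted mean over days depends on the prior count, and it is given only for SPL5-6B, whose sign turned with the tool.

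An earlier report on these data matched basal libraries to an earlier day of the central course. For this reason basal libraries were also set against the central libraries of the sampling before. These comparisons share libraries with those of the same day, and the offset was chosen with earlier results known. Basal day 9 against central day 6 called 6 members higher and 3 lower, against 13.2% and 10.8% of all models, and the 3 became 1 without central day 6 replicate 1 or 3 or basal day 9 replicate 1 or 3. Basal day 12 against central day 9 called 9 higher, against 15.0% of all models. The 9 include the member that met the level only in those basal day 12 libraries, so its call counts as no support. Without that member, 8 of 38 were higher in this comparison. None was lower there by edgeR, DESeq2 or limma after adjustment, or by edgeR at an unadjusted p under 0.05, where edgeR called 10.7% of all models lower. Basal day 15 against central day 12 called 9 higher and 2 lower, against 12.4% and 8.28% of all models. The 2 became 1 without central day 12 replicate 1 and 0 without basal day 15 replicate 1. Leaving out the same member, 1 of 38 was lower in basal day 15 against central day 12. In basal day 9 against central day 6, 5 of 38 were then higher.

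In the SPL10 cluster 3 of 10 models were higher in basal day 9 than in central day 6 libraries, against 13.2% of all models. They were SPL10-7Bc (adjusted p = 0.000688), SPL10-7Dd (adjusted p = 0.00342) and SPL10-7Da (adjusted p = 0.0435), and without SPL10-7Bc it was 2 of 9. The median difference of the 10 was 0.51 on the log2 scale. In basal day 12 against central day 9 libraries 1 of 10 was higher (adjusted p = 0.00752), against 15.0% of all models. This was SPL10-7Bc, which met the level only in those basal day 12 libraries, so the call counts as no support. Without it, 0 of 9 were higher. SPL10-7Bc was also the 1 of 10 that was lower in basal day 15 than in central day 12 libraries (adjusted p = 0.0258), against 8.28% of all models. Neither SPL8 model was called in any of the 3 offset comparisons, with differences of -0.19 to 0.45 on the log2 scale. The SPL2 models stayed higher in basal spikelets, 3 of 3 in both of the later offset comparisons, against 15.0% and 12.4% of all models. SPL2-3D was 2.74-fold higher in basal day 12 than in central day 9 libraries (adjusted p = 4.79e-09), and 1.89-fold higher in basal day 15 than in central day 12 libraries (adjusted p = 2.88e-05). All 3 SPL9 models were higher in basal day 15 than in central day 12 libraries, against 12.4% of all models, by 0.52 to 0.57 on the log2 scale. Between positions on day 15 their differences were 0.07 to 0.20, and 0 were called. In central libraries their summed FPKM averaged 12.4 ± 0.69 on day 12 and 14.9 ± 0.60 on day 15 (SD, n = 3 each).

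The numbers that miR156 targets in rice (SPL2, SPL3, SPL4, SPL16 and SPL18) covered 13 members, leaving out the antisense model, and the other classed numbers covered 24. On day 9, 4 of the 13 were higher and 5 lower in basal spikelets, and of the 24, 1 was higher and 2 lower, where 18.1% of all models were higher and 18.2% lower. On day 12, 11 of the 13 were higher and 10 of the 24, against 13.6% of all models. The 10 include SPL10-7Bc, whose call on that day counts as no support. On day 15, 3 of the 13 were higher and 14 of the 24, against 8.89% of all models. In the mean of 6 days 9 of the 13 were higher and 2 of the 24, against 16.0% of all models. The difference between the classes was not tested. The wheat transcripts were not searched for a miR156 site, and miR156 itself was not among the values used here.

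Genes that act with SPL factors were counted by their deposited descriptions. TEOSINTE BRANCHED 1 represses the outgrowth of side shoots and is known in rice as a target of SPL14. Its 2 models were higher in basal spikelets on days 6, 9, 12 and 21 and in the mean of 6 days, where 7.91%, 18.1%, 13.6%, 10.2% and 16.0% of all models were higher. On day 15, 1 of the 2 was higher and on day 27, 0, against 8.89% and 11.3% of all models. Their summed FPKM was 7.40 to 8.62 in basal and 0.97 to 1.37 in central libraries on day 6, without overlap. DWARF 53, a repressor of strigolactone signalling that binds SPL proteins in rice, had 6 models. Of these, 3 were higher on day 9, against 18.1% of all models, and 6 lower on day 27, against 10.4%. In the mean of 6 days 1 was higher and 2 lower, against 16.0% and 17.5% of all models. SOC1-like MADS-box genes, flowering activators downstream of SPL proteins in Arabidopsis, had 3 models, of which 2 were higher on every day, against 7.91 to 18.1% of all models. AP1- and FUL-like MADS-box genes, also downstream in Arabidopsis, had 5 models, with 4 higher on day 12, against 13.6% of all models, and 4 higher in the mean, against 16.0%.

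AP2-like factors of the miR172 group, which act opposite to SPL proteins in ageing, had 4 models, with 2 higher on day 9, against 18.1% of all models, and 2 on day 12, against 13.6%. In the mean of 6 days 0 of them were higher and 0 lower, against 16.0% and 17.5% of all models. DELLA proteins, which repress gibberellin responses and bind SPL proteins in Arabidopsis, had 6 models, with 4 higher on day 12, against the same 13.6%. On days 6 and 9, 1 was lower, against 9.20% and 18.2% of all models. On days 9 and 15, 1 was higher, against 18.1% and 8.89%. In the mean of 6 days 0 DELLA models were higher and 0 lower, against the same 16.0% and 17.5%. Copper transporters, known in Arabidopsis as targets of SPL7, had 7 models, with 1 higher in the mean, against 16.0% of all models.

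Markers of tissue moved with the position as well. Of 26 spikelet and floret identity models, 19 were lower and 2 higher in basal spikelets in the mean of 6 days, against 17.5% and 16.0% of all models, with a median log2 difference of -0.47. All models together had 18.2% lower on day 9, 14.5% on day 12 and 13.8% on day 15, and 10.2% higher on day 21. Photosynthesis models were lower in 109 of 158 on day 9, in 69 on day 12 and in 117 on day 15, and higher in 48 on day 21. Of 77 secondary wall and vascular models, 43 were lower on day 9, 29 on day 12 and 39 on day 15, and 31 were higher on day 21. Of 99 anther and pollen models, 26 were lower and 6 higher on day 21, against 6.88% and 10.2% of all models. On day 27, 10 of the 99 were lower and 22 higher, against 10.4% and 11.3% of all models. Of 20 clock models, 12 were higher and 6 lower on day 9, against 18.1% and 18.2% of all models. On days 6, 9, 12 and 15 more photosynthesis, wall and floret identity models were called lower than higher in basal spikelets. Of the 39 SPL members, 0, 5, 22 and 19 were higher and 9, 7, 0 and 0 lower on these days. Without SPL10-7Bc, 21 of 38 were higher on day 12. Of all models, 7.91%, 18.1%, 13.6% and 8.89% were higher and 9.20%, 18.2%, 14.5% and 13.8% lower. The part of tissue make-up or of sampling hour in the SPL differences was not tested.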

How the data were processed

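RNA levels were measured by sequencing in 34 libraries of basal and central wheat spikelets. Per the file headers, the authors deposited 1 table of 162233 gene models with a column of estimated counts and a column of FPKM for each library. The estimated counts were whole numbers with no normalization, and in the FPKM the authors had scaled for length and library total. The submitters' processing notes name Bowtie 0.12.2 and the mouse builds mm8 and mm9, which cannot be the genome of these values. What wheat build, counting tool and strand setting were used is not given in the sources used here. Small counts piled up at multiples of 4 (33.9 to 35.6% against 25% if even), so the floor was set at 12 counts per library, 3 fragments if a fragment was worth 4 counts. It covers counting error only.

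Every model whose FPKM was 1 or more in 2 or more libraries was tested. Scaling was by TMM, and 12 group means were fitted with edgeR 4.0.16 under R 4.3.3, using glmQLFit with legacy = FALSE and glmQLFTest. The script was tested on simulated data. Adjusted p-values are over all tested models, at 0.05, with no fold threshold. Standard errors (SE) were obtained from the log2 difference and the root of its F value. Alternatives were DESeq2 (1.42.0) size factors and test, no filter, a filter of 6 libraries, limma (3.58.1) on log2(FPKM + 1) and log2(FPKM + 0.1), a replicate block, and leaving out each library or day 9.

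The members and gene lists were chosen with earlier results of these data known. Values per library are given for the 8 members with the smallest p in the mean of 6 days, the 3 with the smallest p on each day and in the change over days, the 3 highest in level and the copies set beside them. Other members named with values were chosen after their values were seen. Members were classed by the number in their description, since no protein sequences were at hand for a search of the miR156 site, and no sequence is shown. The 1465 rows with no gene name entered the fit as models.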

Additional observations from a re-analysis of the deposited data

Results flagged for a closer look

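The basal minus central difference changed between days in 26 of 39 members by edgeR's test over 5 contrasts. The 26 include SPL10-7Bc, which met the level only in the basal day 12 libraries that enter this test, so its call counts as no support. That is 66.7% of the members, against 56.7% of all models, so a changing difference was common in the whole table. The adjusted p-values were 4.15e-07 for SPL3-6A, 2.68e-05 for SPL3-6B and 2.34e-05 for SPL3-6D. They were 9.76e-06 for SPL8-2B, 0.000273 for SPL8-2D and 5.95e-05 for SPL16-7D. In the SPL10 cluster they were 0.0391 for SPL10-7Aa, 0.00803 for SPL10-7Ab, 0.000122 for SPL10-7Ac, 0.000194 for SPL10-7Ba, 0.00563 for SPL10-7Bb, 0.000216 for SPL10-7Bc, 0.000649 for SPL10-7Da, 0.000508 for SPL10-7Db and 0.000494 for SPL10-7Dd. The group 6 models stood at 0.0015 for SPL5-6B, 0.000685 for SPL5-6D and 0.00192 for SPL21-6A. The SPL18 models stood at 0.00155 for SPL18-5A, 0.028 for SPL18-5B and 0.000187 for SPL18-5D. For SPL2 the values were 0.0112 for SPL2-3A, 0.0402 for SPL2-3B and 0.000476 for SPL2-3D, and for SPL15 they were 0.00192 for SPL15-7A and 0.027 for SPL15-7D. In 4 of them the call ended in some fits that left out 1 library, namely SPL2-3B and SPL10-7Aa in 11 of 34 fits each, SPL15-7D in 7, and SPL18-5B without basal day 12 replicate 2 or central day 12 replicate 3. No cause of these changes was tested.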

How the results depend on the processing

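Counts of members called are given here where a setting moved them by over 1.5 times. DESeq2's test gave 1 member higher on day 6, against 0 by edgeR, and 5 lower on day 27, against 2. DESeq2 size factors gave 0 lower on day 27. Without a filter, 3 members were higher on day 9, 3 on day 21 and 2 on day 27, while 0 were lower on day 27 and 1 in the mean of 6 days. limma on log2(FPKM + 1) gave 1 lower on day 12, 1 higher on day 21, 2 higher on day 27, 17 higher in the mean, and 15 higher and 1 lower for basal day 9 against central day 6. limma on log2(FPKM + 0.1) gave 1 higher on day 21, 2 higher and 4 lower on day 27, and 0 lower for basal day 9 against central day 6. It also moved the median of all models on day 21 to -0.13 on the log2 scale. For basal day 15 against central day 12, no filter and the filter of 6 libraries gave 1 lower each, against 2. Without day 9, 0 members were lower in the mean, against 3. The sign of a mean difference that had not passed the test turned in 2 members, SPL5-6B (-0.64 by edgeR, 0.13 and 0.27 by limma with pseudocounts of 1 and 0.1) and SPL10-7Ab (-0.09 by edgeR, 0.20 by limma with a pseudocount of 1). The cause of these shifts was not tested.

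Leaving out 1 library gave 0 to 2 higher and 4 to 10 lower members on day 6, 4 to 6 higher and 7 to 7 lower on day 9, 14 to 23 higher and 0 to 2 lower on day 12, and 5 to 20 higher on day 15. It gave 1 to 5 higher and 0 to 1 lower on day 21, 1 to 8 higher and 0 to 2 lower on day 27, 9 to 12 higher and 1 to 3 lower in the mean, and 23 to 28 members whose difference changed over days. For the offset comparisons it gave 4 to 8 higher and 1 to 4 lower (basal day 9 against central day 6), 7 to 10 higher (basal day 12 against central day 9), and 7 to 9 higher and 0 to 3 lower (basal day 15 against central day 12).

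The values gave no sign that replicate numbers pair the libraries, but with 2 or 3 libraries per group they cannot exclude it. Deviations of same-numbered basal and central libraries correlated at -0.11 to 0.126 over 16 pairs, with 1 pair above 0.1. Those of differently numbered libraries of the same day correlated at -0.19 to 0.26 over 32 pairs, also with 1 pair above 0.1. A replicate block gave 7 members lower on day 6, 22 higher on day 12, 15 higher on day 15 and 1 lower on day 27. A replicate block within day gave 1 lower on day 12, 8 higher on day 15, 2 higher on day 21 and 1 lower on day 27. Models below the floor on days 21 and 27 are limited by depth, and a difference there was not detectable.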
